A study of Homo sapiens with 9 samples.

Results

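BACH1, NRF2 (gene NFE2L2), its inhibitor KEAP1 and 7 genes of the antioxidant response, HMOX1, NQO1, TXNRD1, GCLM, GCLC, SRXN1 and SLC7A11, are described here over 9 gene expression arrays. They were found by their gene symbol, current or earlier, in the annotation of the array, which gave 10 genes with 11 probes among 13391 named genes that passed a filter on dim probes. All 11 probes were detected on all 9 arrays, so no member was lost to the filter. TXNRD1 was selected on its intensity, which was high on let7a native and that labelled miR-17 methylated, and BACH1 is listed as a known let-7 target, so TXNRD1 is given as values only, with no test.

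All groups, the negative control included, were RKO cells (a colorectal cancer line of human origin) with a disrupted exon 5 of DICER, the nuclease that releases mature miRNAs from their precursors. Cells received RNA duplexes with lipofectamine 3000, and TRIzol was used to extract their RNA after 48 h. The 9 groups, with 1 array each, were miR-200c methylated and native, miR-21 methylated and native, let7a methylated and native, miR-17 methylated and native, and a negative control oligonucleotide. The labels do not give the methylated base or the strand that carries it, and do not say whether the disrupted line is 1 clone. The study asked how RNA modification affects miRNAs. RNA was read on one-colour Toray 3D-Gene arrays, and a level below is a normalized log2 intensity of 1 probe, which can be set against the same probe on another array but not against another probe.

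NRF2 is a transcription factor that, paired with a small MAF protein, binds antioxidant response elements in front of genes for glutathione synthesis, thioredoxin reduction, haem breakdown and quinone reduction. KEAP1 holds NRF2 in the cytoplasm and delivers it for degradation until oxidants or electrophiles modify KEAP1. BACH1 binds the same elements as a repressor, with HMOX1 as its best known target, and leaves DNA when it binds haem. A miRNA recognises its targets mainly through its seed, and let-7 family miRNAs are known to target the BACH1 transcript.

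The mature human miRNAs that carry the 4 names are shown because their seeds set which transcripts each could pair with. The labels give no oligonucleotide sequence, so these are the RefSeq entries (GRCh38.p14), 5′ to 3′, with the seed, bases 2 to 8, in capitals.
let-7a-5p: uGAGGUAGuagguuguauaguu
miR-17-5p: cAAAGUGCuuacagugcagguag
miR-200c-3p: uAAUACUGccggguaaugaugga
miR-21-5p: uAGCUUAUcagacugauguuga
The 4 miRNAs have 4 different seeds, so none shares its seed with another. The let-7a-5p sequence is listed at 3 loci, MIRLET7A1 (chr9:94175962-94175983, plus strand), MIRLET7A2 (chr11:122146568-122146589, minus strand) and MIRLET7A3 (chr22:46112752-46112773, plus strand). MIR17 lies at chr13:91350618-91350640 (plus strand), MIR200C at chr12:6963742-6963764 (plus strand) and MIR21 at chr17:59841273-59841294 (plus strand).

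Between 69.4% and 78.2% of 24460 probes were detected per array, and DICER1 itself was detected on all 9, at log2 levels of 6.25 to 6.74 on the miRNA arrays and 6.71 on the control array. Where the DICER1 probe lies relative to the disrupted exon was not analysed, so it does not check the label. Of 7 epithelial markers, 6 had a probe and 5 were detected on all 9 arrays (KRT18, EPCAM, CDH1, VIL1 and CDX2), with summed levels of 45.8 to 47.1 on miRNA arrays and 46.1 on the control array. Single markers moved apart within that sum: relative to the control, EPCAM differed by 0.50 and KRT18 by -0.76 on the array labelled let7a methylated, and EPCAM by 0.81 on let7a native and 0.72 on that labelled miR-17 methylated. Their part in the results below was not tested. Of the blood and immune markers, 4 were detected on all 9 arrays and PTPRC on none, with summed levels of 37.3 to 38.1 on miRNA arrays and 37.5 on the control array. Of the fibroblast and endothelial markers, DCN was detected on all 9 arrays and COL1A1 and LUM on none, with summed levels of 36.7 to 37.0 on miRNA arrays and 36.9 on the control array. Each sum takes in every listed marker with a probe, undetected ones too, so sums compare arrays but not lineages. The highest mean level was 10.9 in the epithelial list (KRT18), 13.1 in the blood and immune list (CD68) and 7.72 in the fibroblast and endothelial list (DCN). In likeness to each other, 2 arrays went against their labels. Across all kept features, after each feature was centred within its form, methylated and native arrays of miR-200c correlated at r = 0.70 and those of miR-21 at r = 0.46. The array labelled let7a methylated correlated at r = -0.22 with let7a native and at r = 0.69 with miR-17 native. The array labelled miR-17 methylated correlated at r = -0.16 with miR-17 native and at r = 0.56 with let7a native, and its scanner gain slope was 0.453 where the other arrays had 0.409 or 0.41. These are called the 2 doubtful arrays below. They keep their labels, and results that rest on them are given with and without them.

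**Figure D1:**
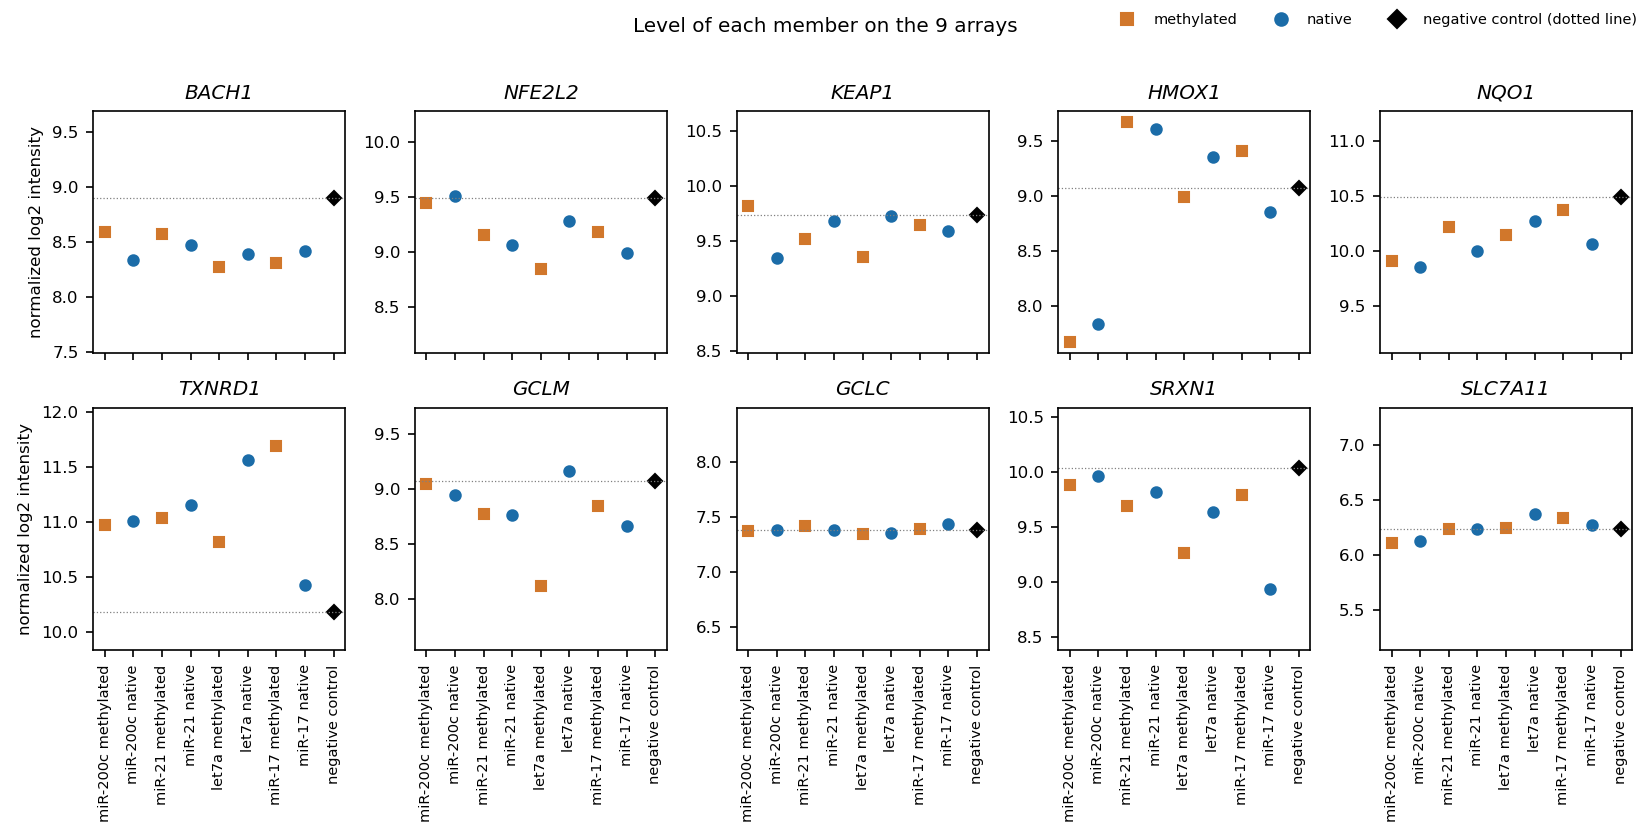
Normalized log2 intensity of each gene (one panel per gene, every vertical axis spanning the same log2 width) on the 8 miRNA arrays and the negative control array, 1 array per point, with squares for methylated, circles for native and a diamond with a dotted line for the control. BACH1 lies below the control line on all 8 miRNA arrays and TXNRD1 above it, and GCLC spans 0.09.

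With 1 array per group, each miRNA array was set against the negative control without a test, and a log2 difference of at least 0.5 was counted. All 8 of these differences use the same control array. On miR-200c methylated, TXNRD1 was higher by that much (background 2.26% of 16072 kept features) and HMOX1 and NQO1 were lower (background 3.33%). On miR-200c native, TXNRD1 was higher (background 2.56%) and BACH1, HMOX1 and NQO1 were lower (background 3.85%). The miR-21 arrays were the only pair with HMOX1 and TXNRD1 both counted as higher, on methylated (background 1.19%) and on native (background 1.02%), and neither had a member counted as lower (backgrounds 1.18% on methylated and 0.765% on native). The array labelled let7a methylated had the most members counted as lower, 4 of 10 (BACH1, NFE2L2, GCLM and SRXN1; background 2.94%), with TXNRD1 higher (background 1.92%). On let7a native, TXNRD1 was higher (background 1.54%) and BACH1 lower (background 1.61%). The array labelled miR-17 methylated had the same 2 genes on the same sides (backgrounds 1.49% higher and 2.03% lower). On miR-17 native no member was higher (background 1.66%) and NFE2L2 and SRXN1 were lower (background 2.77%). Over the 80 member values this made 9 counted as higher and 13 as lower. Since TXNRD1 was chosen for such values, its 7 of those 9 are a description, not read against the backgrounds. The remaining 2 are HMOX1 on the miR-21 arrays. The median difference of the 10 genes lay between -0.36 and -0.02 over the 8 arrays, where the median of all features lay between 0.00 and 0.02.

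**Figure D2:**
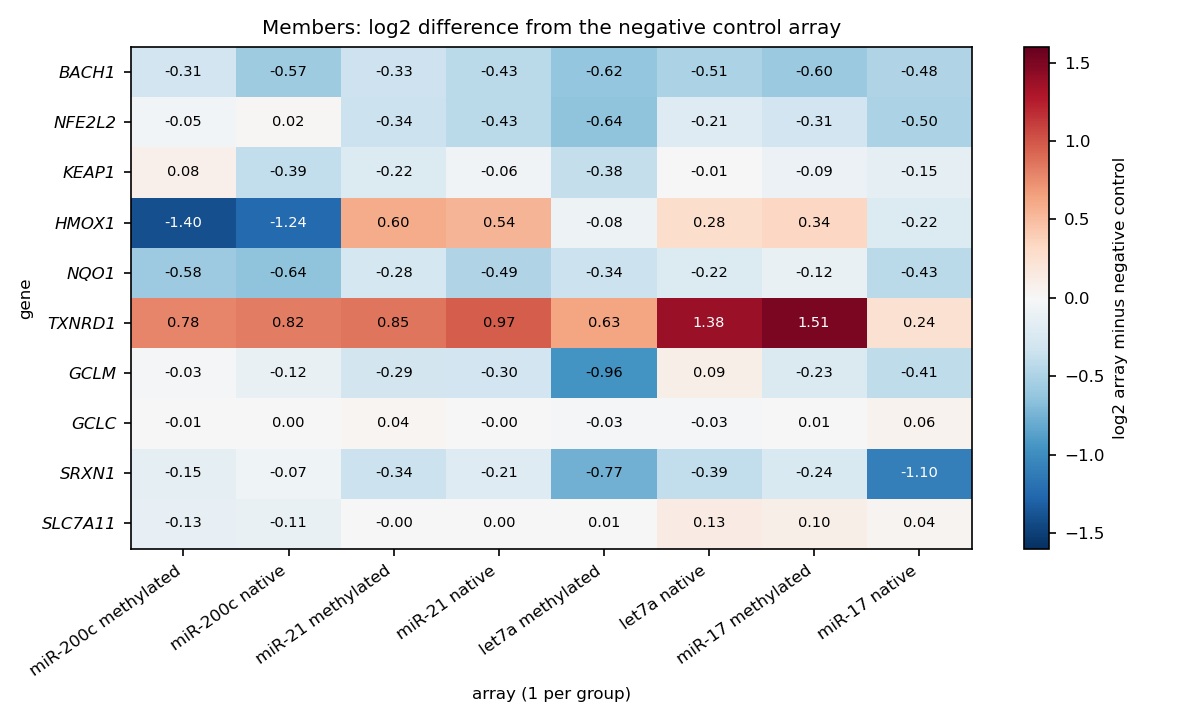
Heat map of the log2 difference of each gene (rows) on each miRNA array (columns, 1 array per group) from the negative control array, with the value printed in each cell, blue below and red above 0. HMOX1 holds the lowest value (-1.40 on miR-200c methylated) and TXNRD1 the highest (1.51 on the array labelled miR-17 methylated).

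BACH1, the repressor, had its highest level on the control array. Its log2 level was 8.59 on methylated and 8.33 on native for miR-200c, 8.57 on methylated and 8.47 on native for miR-21, 8.28 on the array labelled methylated and 8.39 on native for let7a, 8.31 on the array labelled methylated and 8.42 on native for miR-17, and 8.90 on the control array. All 8 miRNA arrays lay below the control, with log2 differences of -0.62 to -0.31 and a median of -0.49, or 0.65 to 0.81 of the control intensity. Of all kept features, 6.91% were below the control on every miRNA array, and BACH1, NQO1 and SRXN1 were the 3 members of that kind. The lowest array was that labelled let7a methylated, but let7a native was only the fourth lowest of the 8. Neighbouring miRNA arrays differed by 0.03 to 0.10, under the residual SD of 0.14 in the additive model, so the order of neighbours is not resolved. Arrays further apart were not compared in this way. The control lay 0.31 above the nearest miRNA array, but it is 1 array outside that model, so the SD does not measure this gap. In these bulk samples fewer cells expressing a gene and less RNA per cell cannot be told apart. In the authors' deposited table, whose miR-200c methylated column stands 0.55 above the control in the median of all features, BACH1 on that array was 0.11 above the control, and relative to that median it was -0.44.

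When each miRNA was set against the mean of the other 3, BACH1 did not pass the threshold for any of them. For let7a, the miRNA it is known for, the log2 difference was -0.11 (SE 0.12, limma adjusted p = 0.90). Without the 2 doubtful arrays, 1 of them in the let7a arm, it was -0.01, with let7a native alone in its group, so no p-value is given. For miR-200c it was 0.06 (SE 0.12, limma adjusted p = 0.875) over all 8 arrays and -0.04 without those 2, so its sign depended on them.

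NFE2L2, which encodes NRF2, had log2 levels of 9.44 on methylated and 9.51 on native for miR-200c, 9.15 and 9.06 for miR-21, 8.85 and 9.28 for let7a, 9.18 and 8.99 for miR-17, in the same order, and 9.49 on the control array. Of the 8, only miR-200c native lay above the control, by 0.02, and the miR-200c arrays were the nearest to it. The lowest differences were -0.64 on that labelled let7a methylated and -0.50 for miR-17 native. The miR-200c arrays averaged 9.47 ± 0.05 (SD, n = 2) and the other 6 arrays 9.08 ± 0.15 (SD, n = 6). That difference, 0.39 (SE 0.15), did not pass the threshold after adjustment (limma adjusted p = 0.235). It was 0.35 without the 2 doubtful arrays.

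KEAP1, the adaptor that marks NRF2 for degradation, stayed between 9.35 and 9.82 on the miRNA arrays, and was at 9.74 on the control array. Its extremes were the miR-200c pair, 9.82 on methylated and 9.35 on native. No miRNA array differed from the control by 0.5, and the groups overlapped, with 1 miRNA array above the control and 7 below. The range of 0.47 was at percentile 69.0 among kept features.

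HMOX1, haem oxygenase 1, which breaks down haem, had the widest range of the 10 genes, 2.00 on the log2 scale, at percentile 99.7 among kept features. Its log2 level was 7.67 on methylated and 7.83 on native for miR-200c, 9.67 on methylated and 9.61 on native for miR-21, 8.99 on the array labelled methylated and 9.35 on native for let7a, 9.41 on the array labelled methylated and 8.86 on native for miR-17, and 9.07 on the control array. Both miR-200c arrays were far below the other 7, without overlap, and both miR-21 arrays were the highest. As raw intensity the probe read 197 and 212 on the miR-200c methylated and native arrays, 746 and 765 on the miR-21 methylated and native arrays, and 573 on the control array, all well over the detection thresholds of 35.4 to 54.3.

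HMOX1 fell with miR-200c relative to the other miRNAs. The miR-200c arrays averaged 7.75 ± 0.12 (SD, n = 2) and the other miRNA arrays 9.32 ± 0.33 (SD, n = 6), a log2 difference of -1.56 (SE 0.18, limma adjusted p = 0.0135). It was the only one of the 9 members tested to pass in this contrast, where 1.1% of features passed as higher and 2% as lower. 3 members had an unadjusted p under 0.05. Without the 2 doubtful arrays the difference was -1.51 (limma adjusted p = 3.42e-05; backgrounds 6.83% higher and 7.93% lower), and over 14 alternative settings it lay between -1.85 and -1.44. The call was lost without miR-200c methylated (-1.44, limma adjusted p = 0.225), without miR-200c native (-1.69, adjusted p = 0.235), without miR-21 methylated (-1.56, adjusted p = 0.0883) and without miR-21 native (-1.57, adjusted p = 0.0842), and held in the other 10 settings.

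With miR-21, HMOX1 averaged 9.64 ± 0.04 (SD, n = 2), against 8.69 ± 0.76 (SD, n = 6) on the other miRNA arrays. The difference of 0.96 (SE 0.18) did not pass over all features (limma adjusted p = 0.392), and no feature did in that contrast (1139 at an unadjusted p under 0.05). Without the 2 doubtful arrays it was 1.01 and passed (limma adjusted p = 0.00294), in a fit with 1 residual degree of freedom in which let7a native and miR-17 native stand alone and are assumed to vary like the other groups. In that fit 0.964% of features passed as higher and 0.859% as lower. For let7a, HMOX1 was 0.59 there and did not pass (limma adjusted p = 0.0556; backgrounds 1.86% higher and 1.36% lower).

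**Figure D3:**
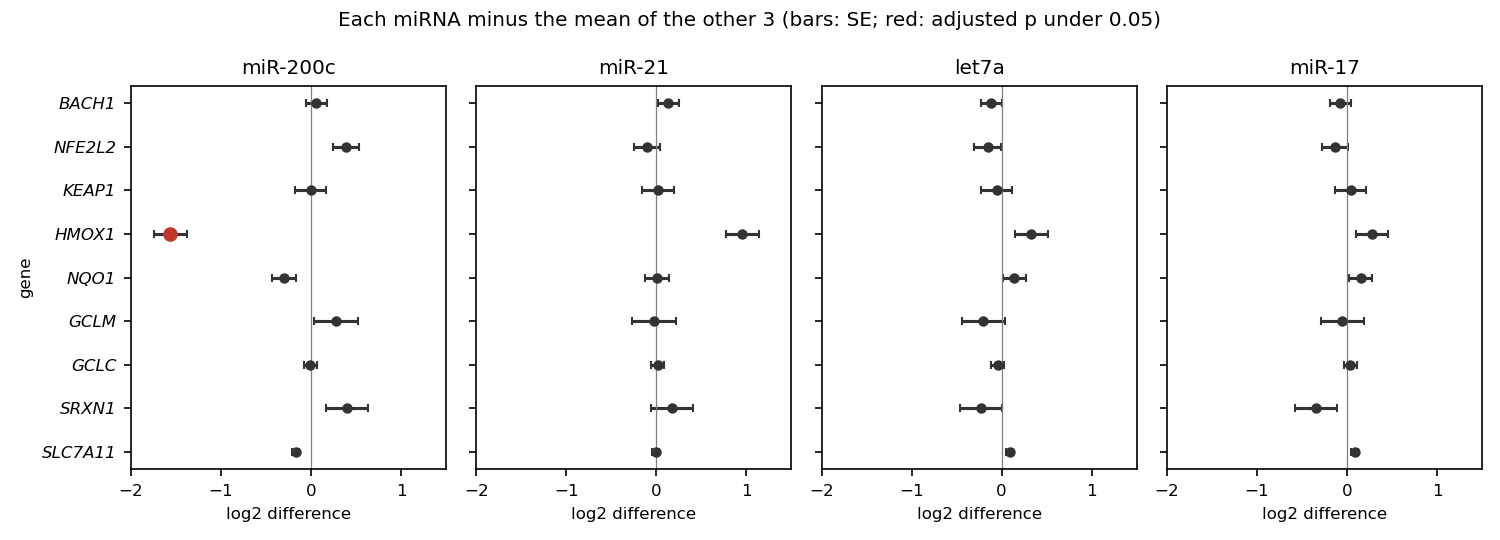
Log2 difference of each of 4 miRNAs (2 arrays) from the mean of the other 3 (6 arrays) for the 9 genes tested, one panel per miRNA, with points for the limma estimate and bars for its SE. The single red point, HMOX1 for miR-200c at -1.56, marks an adjusted p under 0.05, and HMOX1 for miR-21 stands at 0.96 without passing.

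TXNRD1, cytosolic thioredoxin reductase, which uses NADPH to keep thioredoxin reduced, had its lowest level on the control array. The log2 level was 10.965 on methylated and 11.005 on native for miR-200c, 11.03 on methylated and 11.15 on native for miR-21, 10.81 on the array labelled methylated and 11.56 on native for let7a, 11.69 on the array labelled methylated and 10.42 on native for miR-17, and 10.18 on the control array. All 8 miRNA arrays lay above the control, by 0.24 to 1.51 with a median of 0.84, or 1.18 to 2.85 times its intensity. Of all kept features, 11.2% were above the control on every miRNA array, and TXNRD1 was the only member of that kind. The highest arrays were those labelled let7a native and miR-17 methylated, the values for which the gene was picked. The lowest of the 8 were miR-17 native and that labelled let7a methylated, so that native was higher than methylated for let7a and methylated higher than native for miR-17. The range of 1.51 ran from the control to the array labelled miR-17 methylated, for which the gene was picked, so it is not ranked among features. In the authors' deposited table, taken relative to its median, the differences from the control ran from 0.20 to 1.49, all above 0.

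The TXNRD1 promoters, and that of GCLM, are shown because they hold the letters TGACNNNGC, the core of the antioxidant response element at which NRF2 and BACH1 meet. The entries are from RefSeq (GRCh38.p14), run from 250 bases before to 50 bases after a start, are written 5′ to 3′ on the gene's strand, and have each match in capitals, on either strand.
TXNRD1 at chr12:104215529-104215828, plus strand, 2 matches: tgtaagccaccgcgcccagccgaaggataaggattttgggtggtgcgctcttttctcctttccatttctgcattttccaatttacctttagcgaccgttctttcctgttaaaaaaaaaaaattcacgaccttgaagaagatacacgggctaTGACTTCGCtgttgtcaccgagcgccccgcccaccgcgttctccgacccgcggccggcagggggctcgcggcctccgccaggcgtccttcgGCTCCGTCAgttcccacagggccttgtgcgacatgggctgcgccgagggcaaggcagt
TXNRD1 at chr12:104286782-104287081, plus strand, 1 match: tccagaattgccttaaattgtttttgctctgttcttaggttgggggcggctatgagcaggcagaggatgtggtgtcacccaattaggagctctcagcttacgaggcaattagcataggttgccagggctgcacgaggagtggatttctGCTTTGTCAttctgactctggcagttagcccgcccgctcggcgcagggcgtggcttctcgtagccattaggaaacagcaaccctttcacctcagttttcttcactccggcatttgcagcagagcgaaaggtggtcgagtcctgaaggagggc
GCLM at chr1:93909381-93909680, minus strand, 1 match: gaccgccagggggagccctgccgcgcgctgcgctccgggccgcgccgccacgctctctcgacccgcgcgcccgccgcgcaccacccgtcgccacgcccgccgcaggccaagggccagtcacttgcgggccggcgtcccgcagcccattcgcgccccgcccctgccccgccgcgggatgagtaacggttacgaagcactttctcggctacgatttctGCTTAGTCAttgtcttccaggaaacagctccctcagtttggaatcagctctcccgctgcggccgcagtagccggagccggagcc
Of the members, 8 have a promoter entry, 13 promoters in all. HMOX1 and SLC7A11 have none, so they were not searched. A match is held by 4 promoters of 3 genes: both of TXNRD1, that of GCLM and 1 of KEAP1. The KEAP1 promoter has 2 matches and is not shown. Among all 35116 promoters of the table, 13.3% hold 1. A match is a match of letters in this window and was not tested as a binding site.

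SRXN1, sulfiredoxin, which restores over-oxidised peroxiredoxins, was below the control on all 8 miRNA arrays. The log2 level was 9.89 on methylated and 9.97 on native for miR-200c, 9.69 on methylated and 9.82 on native for miR-21, 9.26 on the array labelled methylated and 9.64 on native for let7a, 9.79 on the array labelled methylated and 8.94 on native for miR-17, and 10.04 on the control array. The 2 lowest arrays were miR-17 native, with a difference of -1.099 from the control, and that labelled let7a methylated, with -0.77. In the deposited table SRXN1 on miR-200c methylated stood 0.30 above the control, and -0.25 relative to that table's median. With miR-17 the difference from the other miRNAs was -0.35 (SE 0.23, limma adjusted p = 0.839) over all 8 arrays. Without the 2 doubtful arrays SRXN1 was -0.87 for miR-17 and 0.52 for miR-200c. That fit leaves miR-17 native and let7a native alone in their groups and 1 residual degree of freedom, so no p-value is given. Its backgrounds were 2.66% higher and 3.81% lower for miR-17, and 6.83% higher and 7.93% lower for miR-200c. These shares rest on the same single arrays, so SRXN1 is not read against them. The outcome of SRXN1 against the threshold changed in that fit, so it depended on which arrays entered. The other SRXN1 probe lay near background, 0.382 to 7.73 raw units above the detection threshold. It spanned log2 levels of 5.94 to 5.997, so it could not show the pattern of the probe used.

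GCLM, the modifier subunit of glutamate-cysteine ligase, set apart a single array. Its log2 level was 9.04 on methylated and 8.95 on native for miR-200c, 8.78 on methylated and 8.77 on native for miR-21, 8.12 on the array labelled methylated and 9.16 on native for let7a, 8.84 on the array labelled methylated and 8.66 on native for miR-17, and 9.07 on the control array. The array labelled let7a methylated differed by -0.96 from the control and lay 0.55 below the next array, while let7a native was the highest of all 9. GCLC, the catalytic subunit of the same enzyme, was nearly level over the arrays. Its miRNA arrays lay between 7.35 and 7.44, and the control was at 7.38. The differences from the control were -0.03 to 0.06, and the range of 0.09 was at percentile 8.67 among kept features.

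SLC7A11, the cystine importer that feeds glutathione synthesis, was dim, with raw intensities of 52.6 to 65.1 on the miRNA arrays and 69.9 on the control array. Its log2 level was 6.11 on methylated and 6.12 on native for miR-200c, the 2 lowest arrays, and between 6.23 and 6.37 on the other miRNA arrays, with 6.24 on the control array. Against the other miRNAs miR-200c gave -0.17 (SE 0.04), which did not pass (limma adjusted p = 0.0835). The value was -0.18 without the 2 doubtful arrays, -0.15 without let7a native and -0.19 without the array labelled let7a methylated alone. Each of these fits leaves 1 array of let7a, so no p-value is given for them. The outcome of SLC7A11 against the threshold changed in these fits, so it depended on which let7a arrays entered. Background correction with an offset compresses a dim probe: with the blank mean subtracted instead, SLC7A11 stood at -0.51 on methylated and -0.44 on native for miR-200c relative to the control, where the offset gave -0.13 and -0.11 in the same order.

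NQO1, the NADPH quinone reductase, was lower than the control on all 8 miRNA arrays. Its log2 level was 9.90 on methylated and 9.85 on native for miR-200c, 10.21 on methylated and 10.00 on native for miR-21, 10.15 on the array labelled methylated and 10.27 on native for let7a, 10.37 on the array labelled methylated and 10.06 on native for miR-17, and 10.49 on the control array. The 2 lowest were the miR-200c arrays, at -0.58 and -0.64, and the nearest to the control was that labelled miR-17 methylated, at -0.12. Against the other miRNAs miR-200c gave -0.30 (SE 0.13), which did not pass (limma adjusted p = 0.301), and -0.31 without the 2 doubtful arrays. Neighbouring miRNA arrays differed by 0.06 to 0.10, under the residual SD of 0.16.

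The methylated and native forms were then compared, which is the question of the study. Over all 4 pairs no member passed, no feature passed by limma (108 at an unadjusted p under 0.05), and the 9 members tested lay between -0.19 and 0.11 with SEs of 0.03 to 0.21. Within single pairs there is no test. For miR-200c no member differed by 0.5 either way (backgrounds 0.964% higher and 0.174% lower), with KEAP1 the furthest at 0.47. For miR-21 none did either (backgrounds 0.23% higher and 0.404% lower), and the furthest was NQO1 at 0.21.

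For let7a, all 10 genes were lower on the array labelled methylated than on the native array, with a median of -0.37 where all features had 0.01. GCLM, at -1.05, was lower by at least 0.5 (background 3.47%), and none was higher by that much (background 2.7%). TXNRD1 stood at -0.75. For miR-17, 8 of the 10 were higher on the array labelled methylated, with a median of 0.18 where all features had 0.00. SRXN1 at 0.86 and HMOX1 at 0.55 were higher by at least 0.5 (background 3.37%), and none was lower (background 2.51%). TXNRD1 stood at 1.27. Because TXNRD1 was picked for its high intensity on 1 array of each pair, its differences are a description, not set against these backgrounds. The medians and directions of the 10 genes include it. The let7a and miR-17 pairs are those whose arrays went against their labels in likeness. Read without those 2 arrays, only the miR-200c and miR-21 pairs remain, and BACH1 differed by 0.26 and 0.10 there, HMOX1 by -0.17 and 0.06, and TXNRD1 by -0.04 and -0.12, in the same order. Without those arrays, 3 features passed as higher in the methylated contrast (0.0187%) and none of them was a member.

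**Figure D4:**
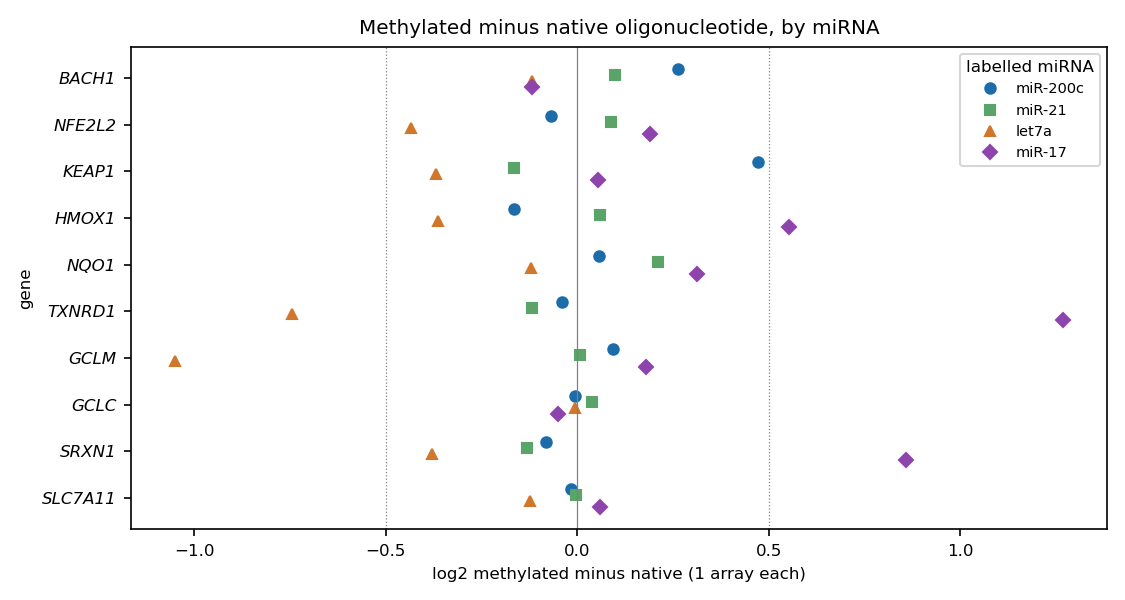
Log2 difference of the methylated from the native array for each gene, with 1 array of each form per miRNA, a marker per miRNA and dotted lines at 0.5 either way. The miR-200c and miR-21 points stay between -0.17 and 0.47, and the points past the dotted lines come from the let7a pair (GCLM -1.05, TXNRD1 -0.75) and the miR-17 pair (TXNRD1 1.27, SRXN1 0.86, HMOX1 0.55).

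Around these genes, 7 lists of the wider pathway held 89 genes, of which 76 were kept. In the miR-200c contrast over all 8 miRNA arrays 1 of the 76 passed as higher and 3 as lower, beside backgrounds of 1.1% and 2%, and their median difference was 0.02 where that of all features was 0.01. No gene of the lists passed in another contrast of that fit. Without the 2 doubtful arrays the median difference of the 76 was 0.01 for miR-200c, 0.02 for miR-21, -0.01 for let7a and -0.06 for miR-17. In that fit let7a native and miR-17 native stand alone, so its calls are not counted for these lists. In the fit over all 8 arrays the passing genes with miR-200c were GSTA4, a glutathione transferase for lipid aldehydes, PRDX3, the mitochondrial peroxiredoxin, and IDH1, a source of cytosolic NADPH, all of which fell, and GPX3, a secreted glutathione peroxidase, which rose.

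GSTA4, one of 19 kept genes of the glutathione system, had log2 levels of 7.51 on miR-200c methylated and 7.58 on miR-200c native, 8.43 to 8.999 on the other miRNA arrays and 8.69 on the control array. Its difference was -1.104 (SE 0.11, limma adjusted p = 0.00854). GPX3, of the same list, was dim, at 6.58 on miR-200c methylated and 6.61 on native, 6.24 to 6.37 on the other miRNA arrays and 6.38 on the control array, a difference of 0.26 (SE 0.04, limma adjusted p = 0.0289). PRDX3, the only call among 14 genes of the thioredoxin and peroxiredoxin system, stood at 10.26 on methylated and 10.45 on native for miR-200c, at 11.16 to 11.57 on the other miRNA arrays and at 11.57 on the control array. Its difference was -1.07 (SE 0.12, limma adjusted p = 0.0113). IDH1, 1 of 4 kept genes of NADPH supply, stood at 8.18 on methylated and 8.09 on native for miR-200c, at 8.90 to 9.49 on the other miRNA arrays and at 8.73 on the control array, a difference of -1.13 (SE 0.15, limma adjusted p = 0.0183). For all 4 genes the miR-200c arrays did not overlap the other 6 miRNA arrays. Without the 2 doubtful arrays the differences were -1.15 for GSTA4, 0.28 for GPX3, -1.08 for PRDX3 and -1.03 for IDH1. None of the 4 passed without miR-200c methylated (limma adjusted p from 0.173 to 0.268), without miR-200c native (from 0.208 to 0.388), without miR-21 methylated (from 0.0603 to 0.126) or without miR-21 native (from 0.0516 to 0.123), and GPX3 did not pass with no intensity trend (adjusted p = 0.0805) or in a fit on the authors' deposited table (adjusted p = 0.225).

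Over all 8 arrays no gene passed among the 13 kept regulators of NRF2 and BACH1, the 10 haem and iron genes, the 12 detoxification genes or the 4 genes of superoxide and peroxide removal. Without the 2 doubtful arrays, let7a native and miR-17 native each stand alone, so values from that fit are given here without a p-value. The genes named from it were picked for passing the threshold in it, so their values are selected. For miR-200c, MAFF (0.19) and MAFK (0.09), small MAF partners of NRF2 and BACH1, and SOD2 (0.55) were higher. The detoxification genes AKR1C3 (-0.26) and PIR (-0.28) were lower. FTL, the ferritin light chain, was lower for let7a (-0.55) and higher for miR-17 (0.54). AKR1C3 and PIR were also higher for let7a, at 0.44 and 0.42, and for miR-17 AKR1C3 was lower, at -0.21, and the drug exporter ABCC1 higher, at 0.32. In the same fit, among the other glutathione, thioredoxin and peroxiredoxin genes, the reductase GSR (0.44), the synthetase GSS (0.51) and GLRX2 (0.40) were higher for miR-200c. GPX8 (-1.15), SESN1 (-0.76), PRDX2 (-0.53) and PRDX1 (-0.47) were lower there. For miR-17, TXNIP (-0.94), GSS (-0.68), GLRX (-0.54) and GPX3 (-0.21) were lower and GPX8 (0.77) higher. SESN1 was 1.02 for let7a and -0.55 for miR-21, and for miR-21 TXNIP was 0.84 and GSTA4 0.70. These genes were named after their values were seen. The values that follow are differences from the control on single arrays, with no test. Among the regulators SQSTM1, the autophagy receptor that can sequester KEAP1, ranged most. It differed from the control by -1.03 on the array labelled let7a methylated, -0.76 on miR-17 native and -0.67 on miR-200c native, and by -0.17 to 0.08 on the other 5. DPP3, which binds KEAP1, ran from -0.41 on the array labelled let7a methylated to 0.40 on miR-21 methylated relative to the control, and GSK3B, a kinase that marks NRF2 for degradation, from -0.09 on miR-200c methylated to 0.66 on that labelled miR-17 methylated. Among the haem and iron genes FTL differed by -0.79 on let7a native, -0.60 on the array labelled miR-17 methylated, and -0.60 and -0.56 on the miR-200c methylated and native arrays, and FTH1, the heavy chain, by -0.46 to 0.24. HMOX2, the constitutive haem oxygenase, differed by -0.29 to 0.32 where HMOX1 differed by -1.40 to 0.60. Among the other lists NQO2 ranged from -0.68 to 0.12, CBR1 from -0.65 to 0.04, UGDH from -0.19 to 0.44, the mitochondrial dismutase SOD2 from -0.10 to 0.57, catalase (CAT) from 0.08 to 0.34 and SOD1 from 0.05 to 0.32.

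The genes most like TXNRD1 over the 9 arrays, among 4089 genes with a range of at least 0.5, were TCEAL1 (Pearson r = 0.93), ERLIN1 (0.92), EPCAM (0.92), HECA (0.91) and TMEM175 (0.90). Those most like BACH1 were BIRC3 (0.93), KIF1B (0.92), TMEM158 (0.91), HMGA2 (0.88) and RPL32 (0.87). TXNRD1 and BACH1 had a Pearson r of -0.60 over the 9 arrays and a Spearman rho of -0.37. Among pairs of TXNRD1 with another member these were the lowest on both measures. BACH1 and SLC7A11 had a lower rho, -0.52 (r = -0.23). The member most like TXNRD1 depended on the measure. It was SLC7A11 by Pearson (r = 0.37, rho = 0.37) and HMOX1 by Spearman (r = 0.23, rho = 0.55). These correlations describe 9 points that share a cell line, a platform and the 1 control array, which is an extreme for TXNRD1 and BACH1.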

How the data were processed

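Per the file headers, each deposited scanner file holds raw median spot intensity at 635 nm (Cy5), with no background subtracted, and per the labels' protocols each of the 9 arrays is 1 group. The members and lists were chosen with earlier results of these data known. Spots were corrected by the normexp method of limma 3.58.1 (R 4.3.3) with an offset of 50, stripped of control spots and of 9 probes with an outlier mark, quantile normalized and put on a log2 scale. A probe was detected above the mean plus 2 SD of 2680 blank spots, and 17684 probes passed on 5 arrays or more. Each gene was represented by its brightest probe on average, giving 16072 features (13391 named). Symbols followed the platform annotation, where 20236 of 24460 probes had 1 symbol, 2899 of them updated through synonyms in a GRCh38.p14 gene table used for names only.

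The tests were limma's, from an additive model over the 8 miRNA arrays with miRNA and form as terms, an intensity trend and 3 residual degrees of freedom, with Benjamini-Hochberg adjustment over all features at 0.05. The labels do not describe separate cultures of 1 treatment, so the p-values cover only the spread among these arrays, which may be technical, and the number of arrays limits the precision. Differences from the control have no replicate and no test. The authors' deposited table of processed intensity, on a linear scale, served as an alternative only, and its making is not described in these sources. All members are named, from each list those past the threshold or else the 3 of widest range, and as like patterns the 5 genes of highest r. Alternatives were median scaling, subtracting the blank mean (floor 1), no filter on dim probes, the deposited table, no trend, no replicate block, leaving out each array, and leaving out both arrays that went against their labels.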

Additional observations from a re-analysis of the deposited data

Results flagged for a closer look

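TXNRD1 differed between miRNAs in the direction of methylated minus native. Its log2 difference was 1.27 for miR-17 and -0.75 for let7a, so the only pair of arrays of one miRNA was on opposite sides of 0 from the only pair of the other. The difference between the 2 pairs was not tested, since each has 1 array per form, and TXNRD1 was chosen for high values on let7a native and that labelled miR-17 methylated. Both values rest on the 2 doubtful arrays, labelled methylated, which resembled the native array of the other miRNA more than that of their own, and their part in the result was not tested.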

How the results depend on the processing

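Counts of calls depended on which arrays entered the model. The miR-200c contrast had 497 features past the threshold over all 8 miRNA arrays, 275 with no intensity trend, 2 to 912 when 1 array was left out in turn, and 2373 without the 2 doubtful arrays, those labelled methylated for let7a and for miR-17. It had 2 features without miR-200c native, 5 without miR-200c methylated, 7 without miR-21 methylated, 7 without miR-21 native, 912 without let7a native and 754 without the array labelled let7a methylated, and its members past the threshold numbered 0 to 2 in these fits and 3 without both arrays named above. The miR-21, let7a, miR-17 and methylated contrasts had 0 features over all 8 arrays. Without both arrays they had 293, 517, 1041 and 3, in that order, with 1 member each for miR-21 and miR-17. In the deposited table they had 39, 5, 12 and 14. Leaving out 1 array gave 0 to 1 for miR-21 and 0 to 2 for miR-17. The fit without both arrays has 1 residual degree of freedom, with let7a native and miR-17 native alone in their groups. The cause of these shifts in counts was not tested.

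In the deposited values, 8 of 40 methylated minus native values of members were at least 0.5 higher (21.8% over all features), against 3 here (1.82%), and GCLC (0.57) and SLC7A11 (0.69) were reversed for miR-200c, where the scanner files gave -0.01 and -0.02. Relative to each array's median in that table the count was 3 (5.82% over all features), GCLC stood at -0.07 and SLC7A11 at 0.05. All these member counts take in TXNRD1, which was selected on its intensity. The median of all features on miR-200c methylated stands 0.55 above the control in that table, and on miR-17 native 0.26. The miRNA is the block that pairs a methylated with a native array, and with no replicate block the methylated contrast had 0 features too. The deposited table moved 41 of 165 values by more than 1 residual SD and reversed 2, while median scaling moved 7, blank subtraction 10 and the lack of a filter on dim probes 0. Probes near background, SLC7A11 and GPX3 above all, have compressed differences.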
